A study of Mus musculus with 59 samples.

Results

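Complex I of the respiratory chain is built from subunits encoded in the nucleus and in the mitochondrial genome, and its nuclear-encoded subunits were examined here as messenger RNA in mouse prefrontal cortex. The members were the 37 genes, of 18088 in the deposited table, whose identifier maps to a protein-coding symbol of the Ndufa, Ndufab, Ndufb, Ndufc, Ndufs or Ndufv series, leaving out the assembly factors named Ndufaf. All 37 passed the filter on low values and were among the 17875 genes tested. They lie on 15 chromosomes, and 2 of them, Ndufa1 and Ndufb11, are X-linked.

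Mice of strain C57BL/6J were heterozygous for Ash1l (HT) or wild type (WT), and females and males of each genotype received vehicle, fluoxetine or lithium in the milk of the dam from postnatal day 3 to 24. Ash1l encodes a histone methyltransferase, fluoxetine is a serotonin reuptake inhibitor and lithium is a mood stabiliser. The tissue was taken on postnatal day 25, and each of the 12 groups of genotype, drug and sex held 5 libraries, except HT lithium females with 4, which gave 59 in all. The sources used here give no Ash1l allele, dose, litter or dam. Litter and treatment therefore cannot be told apart, and every p-value measures only the spread between these libraries.

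Complex I takes electrons from NADH, passes them through a flavin and a chain of iron-sulphur clusters to ubiquinone, and pumps protons across the inner mitochondrial membrane. Its core subunits carry out the chemistry, and the accessory subunits surround them in a matrix arm and a membrane arm. Neurons depend on it for most of their ATP, and inherited defects of many of its subunits cause Leigh syndrome and related diseases of the brain. The 37 members comprise 7 core subunits, 9 accessory subunits of the matrix arm, 19 of the membrane arm, the acyl carrier protein Ndufab1, and Ndufa4, which carries a complex I name but is now placed in complex IV.

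The values are normalised counts, that is, reads divided by a size factor per library, and the recovered reads ranged over the libraries from 24470332 to 36323070. Ash1l, the check of the labels, lay between 3641 and 4382 in the 29 HT libraries and between 4703 and 6218 in 29 of the 30 WT libraries. The remaining one, labelled WT vehicle female replicate 3, had 3557, below every HT library, so its Ash1l level goes against its label. That library also had the highest summed level of the 5 oligodendrocyte markers, 254774 against at most 191611 in the others, and of the 5 choroid plexus markers, 7763 against at most 1239, and the lowest of the 5 cortical excitatory neuron markers, 36090.4 against at least 46798. Together with WT vehicle male replicate 2, which had the lowest mean over the members, it was left out in an alternative. All 5 cortical excitatory neuron markers, among them Slc17a7, Tbr1, Cux2 and Neurod6, were above 0 in every library, with a mean normalised count of 48616 for Slc17a7.

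Levels between genes were compared per kilobase of the principal transcript. Ndufa4 was the highest, at 7205 normalised counts per kilobase, followed by the membrane arm subunits Ndufb9, of the LYR protein family, at 4550.4 and Ndufb8 at 3798. Core subunits lay close together. Ndufs3 had 1999 per kilobase, and Ndufv1, which holds the flavin and the NADH site, had 1949. Ndufs7, which carries the last iron-sulphur cluster of the chain, had 1633, Ndufs8 had 1522, Ndufs1, the largest core subunit, had 1486, and Ndufv2 had 1463. The lowest were Ndufb2 at 228, Ndufb4 at 349 and Ndufab1 at 421 per kilobase. For Ndufb2 and Ndufab1 the annotation holds a shorter transcript of equal rank, with which the levels would be 2190.2 and 1035, so their place is uncertain. The reads of Ndufb4 may be split with Ndufb4c, a near copy of it in the table with a mean normalised count of 859 against 339 for Ndufb4. Over the members the transcript length had a median of 875 bases, against 2842 over all genes tested, and the GC content a median of 52.1% against 49.9%.

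**Figure D1:**
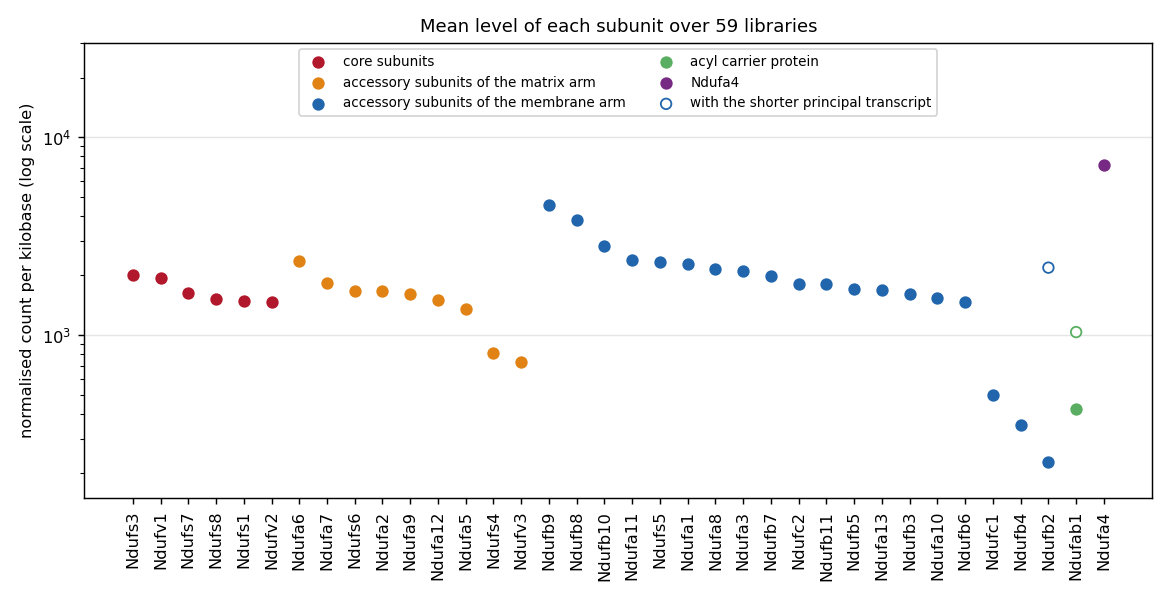
Mean normalised count per kilobase (log axis) of 36 subunit genes over 59 libraries, coloured by role and sorted within each role. Open circles give the level with a shorter principal transcript for Ndufb2 (2190.2) and Ndufab1 (1035). Ndufa4 stands highest at 7205 and the core subunits shown lie between 1463 and 1999.

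Within groups the members varied little. The SD on the log2 scale, pooled within groups, had a median of 0.13 over the members, 0.19 over all genes tested, and 0.14 over genes with a mean normalised count in the range of the members. It was largest for Ndufa2, a matrix arm subunit with a thioredoxin-like fold, at 0.22, and next for Ndufs7 and Ndufb2. Among the members with the smallest SD were Ndufa9 and Ndufa10, a membrane arm subunit related to nucleoside kinases. The deviations of 2 members from their group means, over the 59 libraries, correlated with a median Pearson r of 0.40 over the 666 pairs, and 614 pairs were positive. The highest correlation was 0.88, between Ndufa2 and Ndufa7, and the lowest was -0.43, between the core subunits Ndufs1 and Ndufs7. These 2 core subunits stand apart in base composition, with a transcript GC content of 45.1% in Ndufs1 and 60.7% in Ndufs7. The pairs share libraries and composition, and these correlations are a description.

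The lowest of the 12 groups was WT vehicle males for 30 of the 37 members, and the highest was WT vehicle females for 18. Without the library labelled WT vehicle female replicate 3 the latter count was 8, and the former stayed at 30 without it, without WT vehicle male replicate 2 and without both. The share of all genes with the same lowest or highest group was not counted, so these counts only describe the members. For each library the mean over the members of the log2 deviation from each member's own overall mean gave the same picture. The 5 WT vehicle males lay at -0.14, -0.40, -0.24, -0.14 and -0.11, below all 5 WT vehicle females, at -0.01, 0.01, 0.29, 0.23 and 0.04. The other 10 groups had means between -0.08 in HT vehicle males and 0.08 in HT lithium females. In WT vehicle male replicate 3, 0 of the 37 members reached their own overall mean, while in WT vehicle female replicates 3 and 4 it was exceeded by 36. WT vehicle male replicate 2, the lowest of all, still had 7 members above their own overall mean. It had a Spearman correlation of -0.53 across genes between its deviation and transcript GC content. HT vehicle female replicate 4 had one of -0.54, with a mean over the members of 0.00. Within each genotype and sex the same vehicle libraries are the control for fluoxetine and for lithium, so the comparisons of the drugs share them.

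**Figure D2:**
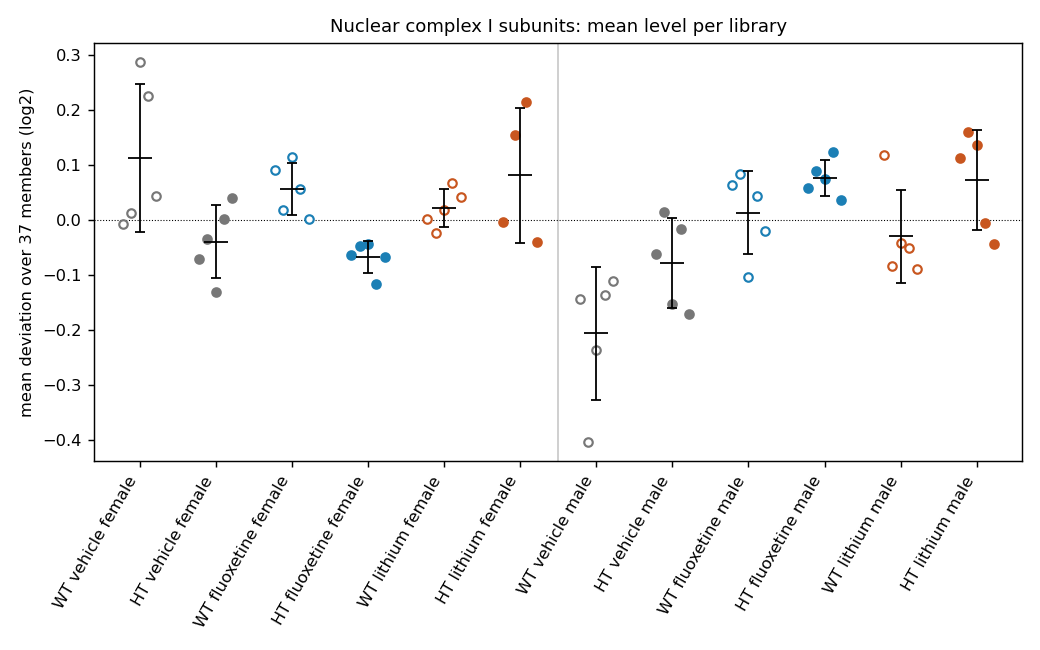
Mean over the 37 subunit genes of the log2 deviation from each gene's mean over all libraries, 1 point per library, with the group mean and SD in black. Open points are WT and filled points HT, in grey for vehicle, blue for fluoxetine and orange for lithium, females left of the line. WT vehicle males lie between -0.40 and -0.11, below every WT vehicle female.

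Lithium raised 13 of the 37 members and lowered 0 on average over the 4 strata of genotype and sex, while over all genes tested 7.39% rose and 5.74% fell (limma, adjusted p under 0.05). The changes were small. The 13 rose between 1.08-fold and 1.13-fold, the median log2 fold change over all 37 was 0.09 against 0.00 over all genes, and 34 members had a positive value. In the stratum of WT females, 30 of the 37 had a negative value. Of the core subunits 4 of 7 rose, among them Ndufs3, Ndufs7 and Ndufv1, of the matrix arm 2 of 9, Ndufa9 and Ndufs6, and of the membrane arm 7 of 19, Ndufa1, Ndufa8, Ndufb4, Ndufb7, Ndufb9, Ndufb10 and Ndufs5. Ndufab1 had -0.02 and Ndufa4 0.09, and neither passed. Without the 2 libraries named above 16 members rose. Of the 13, 11 passed in all 46 alternatives run for this comparison. Ndufs3 was lost without HT lithium female replicate 3 or WT vehicle female replicate 1, and Ndufs7 was lost in 20 alternatives.

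Ndufa9, an accessory subunit at the junction of the arms that binds NADPH, ranged from 1903 to 2378 with a median of 2212 in the 20 vehicle libraries, and from 2172 to 2642 with a median of 2414 in the 19 lithium libraries. Its log2 fold change was 0.11 ± 0.02 (SE, limma adjusted p = 0.0019). The ranges overlapped, and 17 of 19 lithium libraries lay above the vehicle mean of their own genotype and sex. Ndufa9 is among the 3 members with the smallest SD within groups.

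Ndufa8, a membrane arm subunit with twin CHCH motifs that faces the intermembrane space, had 1508 to 2219.6 in vehicle, median 1745, and 1729 to 2219 under lithium, median 1893. It changed by 0.13 ± 0.03 on the log2 scale (limma adjusted p = 0.0024), and 14 of 19 lithium libraries were on the higher side. Ndufv1 ranged from 2383 to 3466 in vehicle, median 2979, and from 3029.5 to 3559.9 under lithium, median 3321. Its change was 0.14 ± 0.03 (adjusted p = 0.0025), with 17 of 19 libraries on the higher side. Ndufs5, another twin CHCH subunit, had 1127 to 1907 in vehicle, median 1517, and 1501 to 2059 under lithium, median 1622, a change of 0.15 ± 0.04 (adjusted p = 0.0089). The ranges of these genes overlapped between vehicle and lithium, and the lithium medians were the higher in each.

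**Figure D3:**
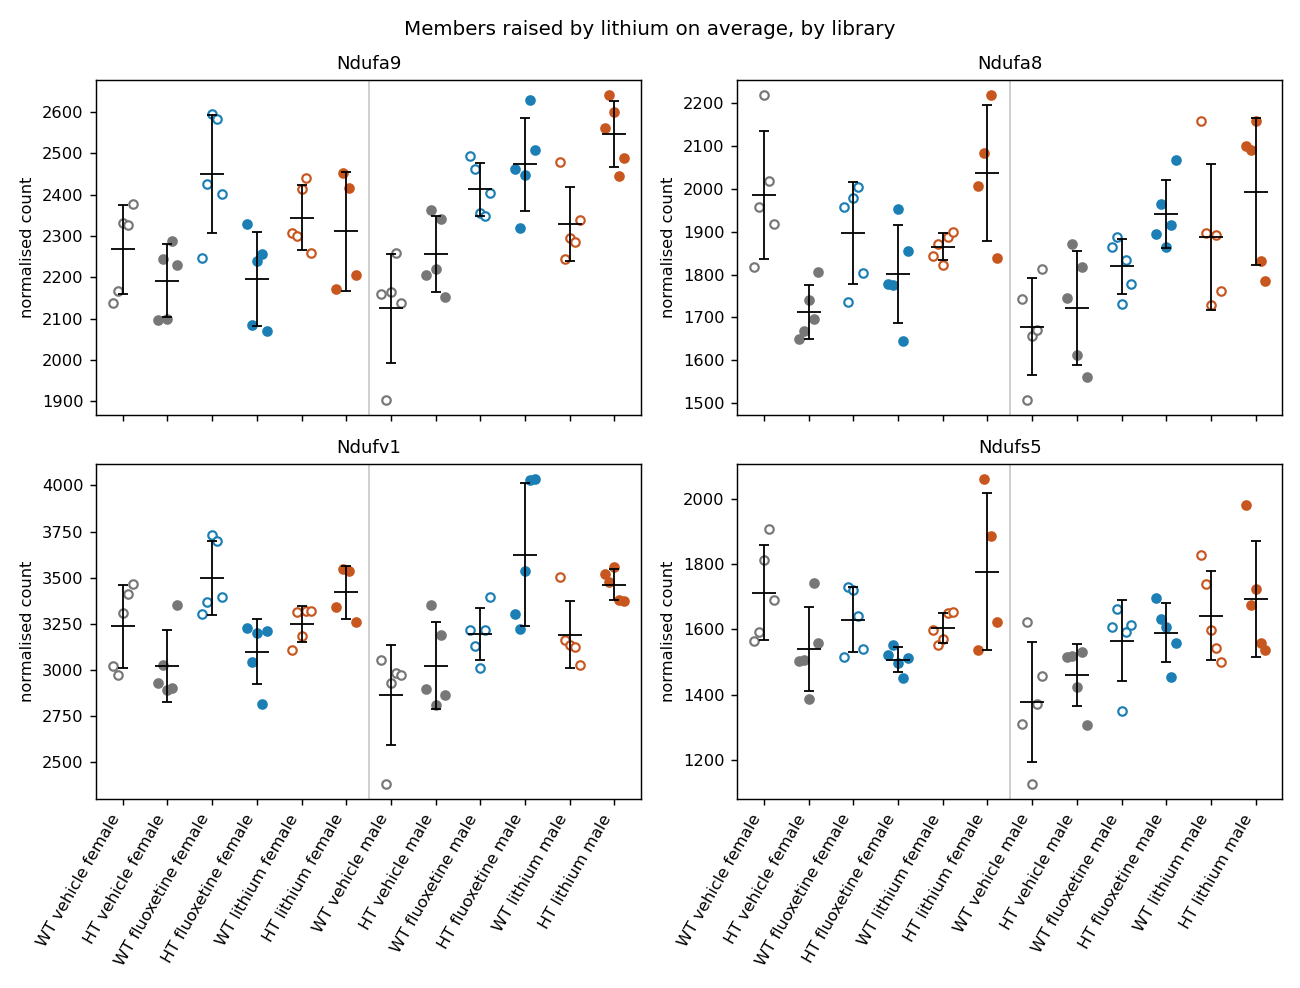
Normalised count of Ndufa9, Ndufa8, Ndufv1 and Ndufs5 in each library of the 12 groups, with group mean and SD in black. Open points are WT, filled points HT, grey vehicle, blue fluoxetine, orange lithium, females left of the line. The axes do not start at 0. Medians under lithium are 2414, 1893, 3321 and 1622, against 2212, 1745, 2979 and 1517 in vehicle.

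Promoter windows from RefSeq (build GRCm38.p6, from 250 bases before to 50 after the start of the gene) were found for 33 of the 37 members and for 12676 of the genes tested. Sites of NRF1, GABPA (an ETS factor) and YY1 are known in promoters of respiratory chain genes. The core letters of the NRF1 site, which allow any base at 1 place and are the capitals of the first 4 sequences below, were searched on both strands and were in 7 members (21.2%) and in 9.84% of all windows, and CCGGAAGT for the ETS family in 1 member, Ndufs3 (3.03% against 7.72%). The letters of the YY1 site, the capitals of the last 4 sequences, were in 4 members (12.1% against 1.98%), CCAAT was in 10 (30.3% against 42.5%) and TATAAA in 4 (12.1% against 9.44%). In the members no NRF1, ETS or YY1 match overlapped a match of another motif. Of the 13 members raised by lithium on average, 4 had an NRF1 match in the 150 bases before the start, and these are shown. Ndufa5 and Ndufa11, which did not pass in the lithium average, also had a match in that stretch. With lithium 34 of the 37 members had a positive value, so a shared direction does not set these 4 apart. The share of all genes with a match in this shorter stretch was not counted. The 4 stretches lie at chr2:36049339-36049488 for Ndufa8, chr16:37654369-37654518 for Ndufb4, chr4:123718187-123718336 for Ndufs5 and chr13:73328483-73328632 for Ndufs6, all on the minus strand. Each is printed 5′ to 3′ with the NRF1 letters in capitals.
Ndufa8: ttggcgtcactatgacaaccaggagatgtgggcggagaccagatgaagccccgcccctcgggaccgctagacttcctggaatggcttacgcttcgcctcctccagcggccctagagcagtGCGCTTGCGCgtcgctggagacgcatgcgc
Ndufb4: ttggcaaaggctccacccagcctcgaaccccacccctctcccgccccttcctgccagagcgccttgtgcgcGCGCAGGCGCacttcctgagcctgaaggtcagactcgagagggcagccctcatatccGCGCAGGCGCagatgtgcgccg
Ndufs5: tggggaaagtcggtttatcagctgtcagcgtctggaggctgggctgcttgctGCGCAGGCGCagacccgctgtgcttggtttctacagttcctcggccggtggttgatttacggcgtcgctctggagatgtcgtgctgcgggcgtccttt
Ndufs6: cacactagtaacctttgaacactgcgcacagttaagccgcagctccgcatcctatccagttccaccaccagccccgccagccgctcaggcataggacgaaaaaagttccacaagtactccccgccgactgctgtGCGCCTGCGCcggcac

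The YY1 letters lay just after the start in all 4 members that had them, Ndufa9, Ndufs4, Ndufs6 and Ndufs7. They contain ATG, and in 4 of 4 members this ATG was an annotated start codon, as in 99 of the 251 genes tested with the motif (39.4%). The 30 bases around each are shown, with the YY1 letters in capitals, at chr6:126849096-126849125 (minus strand) for Ndufa9, chr13:114388045-114388074 (minus) for Ndufs4, chr13:73328433-73328462 (minus) for Ndufs6 and chr10:80249463-80249492 (plus) for Ndufs7.
Ndufa9: attgtgggagAAGATGGCGGccgccgtccg
Ndufs4: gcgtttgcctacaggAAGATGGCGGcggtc
Ndufs6: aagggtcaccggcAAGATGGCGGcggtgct
Ndufs7: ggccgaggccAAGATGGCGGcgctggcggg
A match is a description of letters and not evidence of binding. Head-to-head neighbours were common as well. A protein-coding gene on the opposite strand started within 1000 bases in 13 of the 37 members (35.1%), against 10.6% of the protein-coding genes tested, for example Rps28 beside Ndufa7, Mrpl36 beside Ndufs6 and Eef1b2 beside Ndufs1.

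Within the 4 strata the lithium comparison called few members. In HT females 3 rose, against 1.82% of all genes, the median of the 37 was 0.11, and 0 fell. Groups did not overlap, with lithium higher, for 4 members (4.13% of all genes), and with lithium lower for 0 (3.38%). Ndufa8 had 2007, 2083, 2219 and 1839 under lithium and 1648, 1668, 1740.0, 1697 and 1806 with vehicle, so the groups did not overlap (log2 fold change 0.25 ± 0.07, limma adjusted p = 0.029). Ndufb10, a membrane arm subunit, had 2135, 2527, 2506 and 1988 against 1766, 1875, 1667, 1725 and 2236, and Ndufs6, a zinc-binding matrix arm subunit, had 1051, 1155, 1260.4 and 897 against 873, 891, 835, 837 and 932. In both genes the groups overlapped, and replicate 4 was the lowest of the lithium libraries (0.30 ± 0.09, adjusted p = 0.040, and 0.31 ± 0.09, adjusted p = 0.046). The count fell to 0 when HT lithium female replicate 1, 2 or 3 or HT vehicle female replicate 2 or 4 was left out. Leaving out HT lithium female replicate 4 gave 7, and among the HT vehicle females replicate 1 or 3 gave 1 and replicate 5 gave 8. After removal of a trend on GC content and transcript length it was 0. The 4 olfactory bulb markers had a median log2 fold change of -2.68 in the same comparison, with summed levels of 573 to 801 under lithium and 391 to 12344 with vehicle, and 0 of 4 passed. The astrocyte markers Aqp4 (-0.49) and Gja1 (-0.29) fell, with a summed level over the 5 of 27932 to 32849 under lithium and 33723 to 40123 with vehicle. Of the 4 meningeal fibroblast markers only Dcn (-0.78) passed, and it fell. Of the 5 microglial markers only C1qa (0.32) passed, and it rose. The summed microglial levels overlapped, at 6688 to 7300 under lithium and 6299 to 7443 with vehicle. Their part in the result was not tested.

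In WT females 1 member rose and 1 fell, against 1.76% and 0.694% of all genes. The median of the 37 was -0.09, and 30 were negative. Ndufs1 had 4290.1, 4258, 4096, 4220.1 and 4261 under lithium and 3489.9, 3237, 3249, 3767 and 3592 with vehicle. Every lithium library was above every vehicle library for this member only, as in 3.03% of all genes (0.29 ± 0.07, limma adjusted p = 0.029). Ndufv3, the small flavoprotein subunit, had 1059, 1033, 1134, 1149 and 1031 against 1199.6, 1199, 1495, 1407 and 1214. For this member only, every lithium library was below every vehicle library, as in 3.22% of all genes (-0.26 ± 0.07, adjusted p = 0.041). Ndufs1 was lost without WT lithium female replicate 1, 2, 4 or 5 or WT vehicle female replicate 2, and Ndufv3 without any single WT lithium female library or WT vehicle female replicate 4, while 2 members fell without WT vehicle female replicate 1. Neither gene passed without the library labelled WT vehicle female replicate 3, nor after removal of the GC and length trend, where the median of the members was 0.02. Across genes the fold changes of this comparison correlated with GC content at a Spearman value of -0.37. The endothelial markers Cldn5 (-0.56) and Flt1 (-0.35) fell, with a summed level over the 4 of 4496 to 4866 under lithium and 5611 to 8465.5 with vehicle, and their part in the result was not tested.

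In males lithium called 0 members by limma in either genotype, with higher values in 35 of 37 members in each. Over all genes 0.14% rose and 0.112% fell in HT males, and 0.291% rose and 0.185% fell in WT males. At an unadjusted p under 0.05, 19 members were higher and 0 lower in HT males and 24 higher and 0 lower in WT males. Of all 17875 genes, 2203 in HT males and 2691 in WT males had such a p in either direction. The medians were 0.18 and 0.19, and edgeR called 0 in both, while DESeq2 called 1 in HT males and 0 in WT males. Ndufa9 had 2561, 2642, 2601, 2444 and 2488 in HT lithium males and 2205, 2364, 2219, 2341 and 2152 in HT vehicle males, without overlap (0.18 ± 0.05, adjusted p = 0.092), and Ndufa8 had the next smallest p (0.21 ± 0.06, adjusted p = 0.111). Groups did not overlap, with lithium higher, for 6 members in HT males, where 1.76% of all genes did so, and for 4 in WT males, where 1.16% did so. In WT males the smallest p-values were those of Ndufb7 (0.27 ± 0.08, adjusted p = 0.098) and Ndufs5 (0.26 ± 0.08, adjusted p = 0.098). The summed level of the 5 astrocyte markers was 31143.5 to 34877 in WT lithium males and 35813 to 41850 in WT vehicle males, without overlap. In HT males it was 25724 to 34190 under lithium and 34065 to 39709 with vehicle. The part of these markers in the result was not tested. The difference of the lithium effect between females and males, a comparison added after the data were seen, had a median of -0.14 and was negative in 35 members, and 0 passed by limma, edgeR or DESeq2, as for 0.0% of all genes by limma. At an unadjusted p under 0.05 it was negative in 12 members, where 1041 of all 17875 genes had such a p in either direction. Among the members the smallest p-values were those of Ndufa5 (-0.34 ± 0.08, adjusted p = 0.53) and Ndufc1 (-0.41 ± 0.11, adjusted p = 0.53).

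Other genes of complex I were read in the same comparison. Of 16 assembly factors, 1 rose with lithium on average, Tmem126b, a membrane factor that helps to build the proton-pumping arm (0.13 ± 0.04, limma adjusted p = 0.033), 0 fell, and their median was 0.05. The 7 mitochondrially encoded subunits had a median of -0.03 with 0 passing in either direction, and were abundant, from a mean normalised count of 1623 for mt-Nd6 to 201366 for mt-Nd4. Of 10 regulators of mitochondrial genes, among them Ppargc1a, Nrf1, Gabpa and Yy1, 0 passed, with a median of -0.02. Markers of other cells moved in the same comparison. Of the 5 astrocyte markers Aqp4, Gja1 and Slc1a3 fell, with summed levels of 25724 to 37138 under lithium and 32433 to 41850 with vehicle. Of 4 endothelial markers 3 fell, of 4 meningeal fibroblast markers 2 and of 5 microglial markers 2, while 0 of the 5 excitatory neuron, 3 inhibitory neuron and 5 oligodendrocyte markers passed. The 6 striatal markers had summed levels of 2634 to 11603 under lithium and 2409 to 7863 with vehicle. None of these markers was at 0 in any library. Their part in the result was not tested, and in bulk tissue fewer cells of a type and less RNA per cell cannot be told apart.

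**Figure D4:**
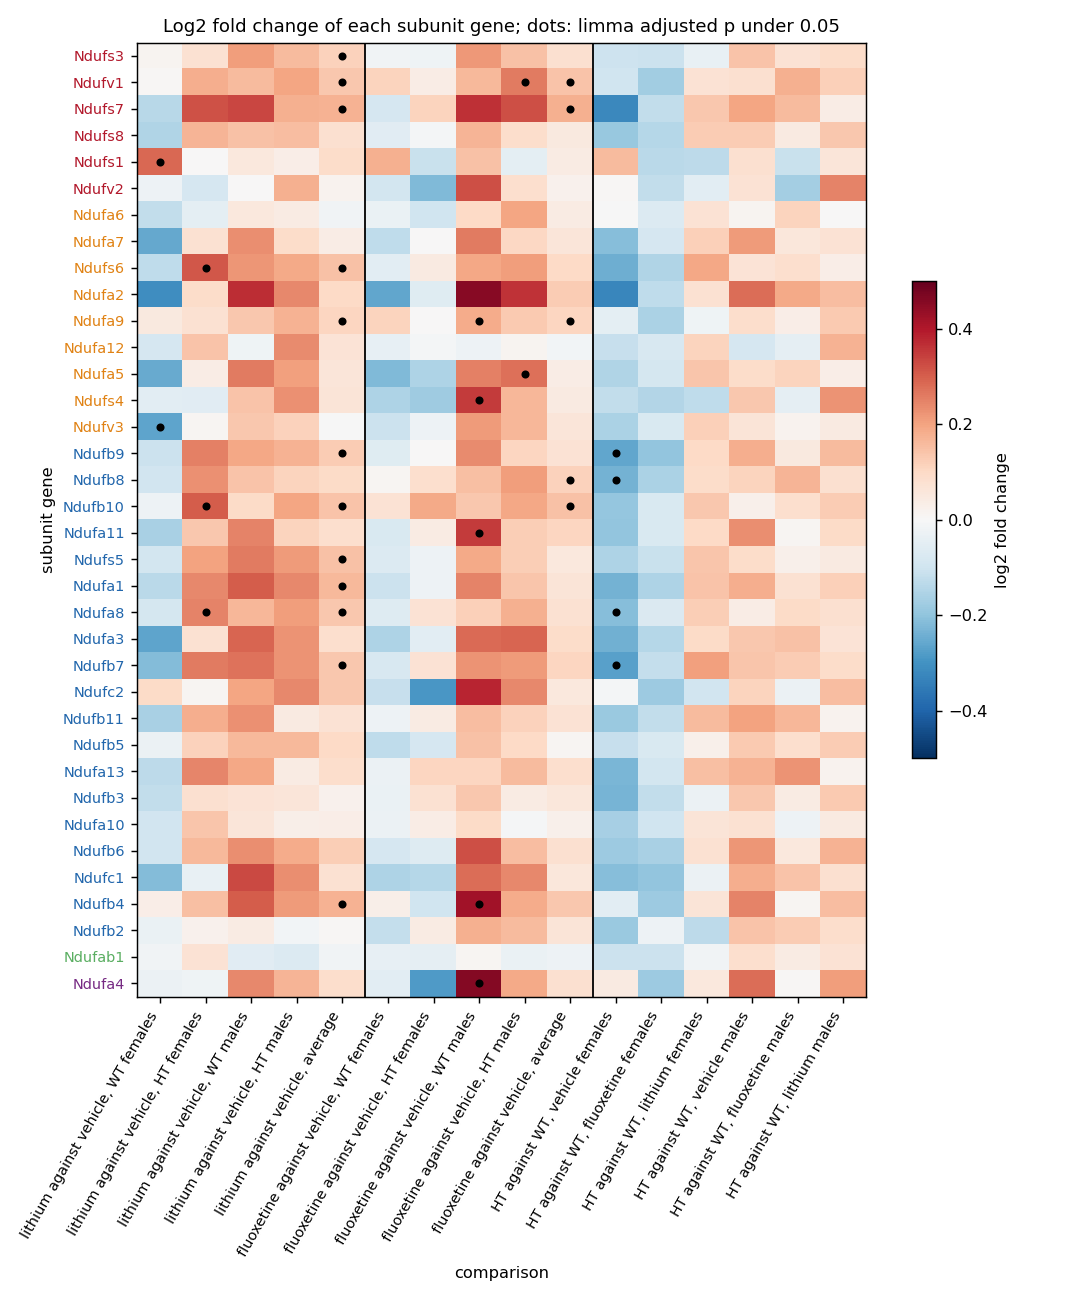
Log2 fold change (colour, from -0.5 to 0.5) of 36 subunit genes in 16 comparisons, lithium left, fluoxetine in the middle and genotype right, with black dots where the limma adjusted p is under 0.05. Gene names are coloured by role as in the plot of levels. The lithium average has 12 dots and the fluoxetine average 5, and the column of HT against WT vehicle females is mostly blue with 4 dots.

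Fluoxetine raised 6 members and lowered 0 on average over the same strata, where 6.94% of all genes rose and 6.6% fell. The median of the 37 was 0.07 against 0.01 over all genes, and 35 were positive. In the stratum of WT females 30 were negative, and in that of HT females 20. The 6 included the core subunits Ndufv1 and Ndufs7, the matrix arm subunit Ndufa9, and Ndufb8 and Ndufb10 of the membrane arm. Of the 6, 5 are also among the 13 raised by lithium, which is 83.3% of the fluoxetine list and 38.5% of the lithium list, and both lists rest on the same vehicle libraries.

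Ndufv1 ranged from 2818 to 4034 under fluoxetine, median 3266, against 2383 to 3466 with vehicle, median 2979, and its log2 fold change was 0.14 ± 0.03 (limma adjusted p = 0.0015), with 19 of 20 fluoxetine libraries above the vehicle mean of their stratum. Ndufa9 had a median of 2402 against 2212 (0.11 ± 0.02, adjusted p = 0.0020, 17 of 20 libraries). The medians of Ndufb10 were 2109 and 1917 (0.15 ± 0.04, adjusted p = 0.012), those of Ndufb8 2644 and 2414 (0.11 ± 0.03, adjusted p = 0.020) and those of Ndufs7 1284 and 1133 (0.18 ± 0.06, adjusted p = 0.029). The ranges overlapped in each of these genes. After removal of the GC and length trend 3 members rose, 10 rose without the library labelled WT vehicle female replicate 3, and Ndufv1 and Ndufa9 passed in all 47 alternatives run for this comparison. Of the 16 assembly factors 2 rose, Foxred1 (0.08 ± 0.03, limma adjusted p = 0.0276) and Tmem186 (0.11 ± 0.03, adjusted p = 0.02), and of the 7 mitochondrially encoded subunits 0 passed, with a median of -0.11. Of the 5 astrocyte markers Aqp4 and Gja1 fell, of the 4 endothelial markers Cldn5, Flt1 and Pecam1, and of the 5 microglial markers P2ry12 (-0.21). The 6 striatal markers had summed levels of 2629 to 9667 under fluoxetine and 2409 to 7863 with vehicle. The part of these markers in the result was not tested.

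In WT males fluoxetine raised 5 members, against 0.414% of all genes, lowered 0, against 0.436%, and gave a median of 0.19. Groups did not overlap, with fluoxetine higher, for 7 members, Ndufa4, Ndufa9, Ndufa11, Ndufb6, Ndufc2, Ndufs4 and Ndufs8 (1.96% of all genes), and with fluoxetine lower for 0 (1.98%). Ndufa4 had 5074, 5386, 4307, 4667 and 4168 under fluoxetine and 3679, 2471, 3229, 3834 and 4128 with vehicle, so the groups did not overlap, and replicate 2 was the lowest control. Its fold was 1.38 (log2 0.46 ± 0.09, limma adjusted p = 0.015), the largest among the 5. Ndufs4, a late-joining subunit of the matrix arm whose loss in mice models Leigh syndrome, had 1621, 1511, 1479.8, 1378 and 1442 against 1344, 1122, 1013, 1188 and 1187, again without overlap (0.35 ± 0.07, adjusted p = 0.018). Ndufa11, a membrane arm subunit near the contact with complex III, and Ndufa9 also did not overlap, and Ndufb4 overlapped by its libraries of 332 under fluoxetine and 335 with vehicle (0.35 ± 0.08, 0.19 ± 0.05 and 0.42 ± 0.11). The 5 became 0 without WT vehicle male replicate 2, 1 without WT fluoxetine male replicate 1, 2 without WT fluoxetine male replicate 2 or 4 or WT vehicle male replicate 3, and 3 without WT fluoxetine male replicate 3 or 5. They became 8 without WT vehicle male replicate 5. The 6 striatal markers had summed levels of 3220 to 9667 (median 7017) under fluoxetine and 2409 to 3683 (median 2924) with vehicle. Their part in the result was not tested.

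In HT males 2 members rose with fluoxetine, against 2.58% of all genes, and 0 fell, against 3.16%, and the median was 0.16. Groups did not overlap, with fluoxetine higher, for 4 members, Ndufb7, Ndufb10, Ndufc1 and Ndufs6 (2.74% of all genes), and with fluoxetine lower for 0 (3.22%). Ndufv1 had 3303, 3225, 3536, 4029 and 4034 against 2896, 3354, 2813, 3191 and 2865 (0.26 ± 0.06, limma adjusted p = 0.010), where only the control of 3354 lay above fluoxetine libraries. Ndufa5, a small matrix arm subunit, had 1257, 1288, 1288, 1391 and 1201 against 1142, 1005, 1078, 1207 and 897 (0.28 ± 0.08, adjusted p = 0.035), and the groups overlapped at 1201 and 1207. The count was 0 without HT fluoxetine male replicate 4, and 1 without HT fluoxetine male replicate 3 or HT vehicle male replicate 3 or 5. After removal of the GC and length trend it was 0, with a median of 0.03. Without the 2 libraries that stand apart it was 10. Those 2 are not in this comparison, so only the spread pooled over all groups and the adjustment changed. Markers of other cells fell in the same comparison, Aqp4 (-0.50) and Gja1 (-0.30) of 5 for astrocytes, Flt1 (-0.36) of 4 for endothelium and P2ry12 (-0.41) of 5 for microglia. The summed astrocyte level was 28020 to 38025 under fluoxetine and 34065 to 39709 with vehicle. The microglial one was 5450 to 6696 and 5966 to 7615, and the endothelial one 3963 to 5254 and 4707 to 5993. Their part was not tested. In HT males 3 of the 10 regulators fell, Gabpa (-0.36 ± 0.11), Pprc1 (-0.32 ± 0.08) and Yy1 (-0.23 ± 0.04), and on average over the strata these 3 fell and Nrf1 rose (0.13 ± 0.04, adjusted p = 0.031).

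In females fluoxetine called 0 members in either genotype by limma, edgeR or DESeq2, while by limma 1.25% of all genes rose and 1.59% fell in WT females and 0.0% did so in HT females. The medians were -0.06 in WT females, with 30 members negative, and -0.01 in HT females, with 20 negative. At an unadjusted p under 0.05, 2 members were higher and 2 lower in WT females and 1 higher and 4 lower in HT females. Of all 17875 genes, 2939 in WT females and 1370 in HT females had such a p in either direction. In WT females that is a larger share than among the members. Ndufa4 had 4149.6, 4198, 3915, 3829 and 3511 in HT fluoxetine females and 4749, 4738, 4579, 5601 and 4221 in HT vehicle females, where every fluoxetine library was below every control, as in 0.515% of all genes, but the adjusted p was 0.52 (-0.28 ± 0.09). The next smallest p in HT females was that of Ndufc2 (-0.29 ± 0.10, adjusted p = 0.59). No other member of HT females, and 0 of WT females, had groups that did not overlap, against 0.554% of all genes with fluoxetine higher in HT females and 2.19% higher and 2.6% lower in WT females. In WT females the regulator Pprc1 (-0.35) fell, and of the 4 endothelial markers Cldn5 (-0.68) and Flt1 (-0.54). Among the members the smallest p-values were those of Ndufa5 (-0.22 ± 0.08, adjusted p = 0.13) and Ndufs1 (0.18 ± 0.07, adjusted p = 0.18).

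The fluoxetine effect differed between the sexes for 5 members, all with a lower effect in females, against 0.375% of all genes in that direction and 0.0503% in the other. This difference, averaged over the genotypes, was a comparison added after the data were seen. It was negative for 37 of 37 members, with a median of -0.21 against 0.01 over all genes. The 5 were Ndufs4 (-0.42 ± 0.07), Ndufa5 (-0.45 ± 0.08), Ndufa4 (-0.49 ± 0.09), Ndufc2 (-0.51 ± 0.10) and Ndufa2 (-0.57 ± 0.13), with limma adjusted p of 0.0062 for the first 3, 0.0084 and 0.029.

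Ndufc2, a membrane arm subunit, shows the pattern. In vehicle it ranged from 1139.9 to 1545 in females, median 1296, and from 827 to 1179 in males, median 1086, while under fluoxetine it ranged from 881 to 1361 in females, median 1149, and from 1076 to 1571 in males, median 1351. The order of the sexes was thus opposite in vehicle and under fluoxetine, with overlapping ranges in both. For Ndufa4 the medians were 4582 in females and 3807 in males with vehicle, and 4136 and 4645 under fluoxetine. Ndufs4 had medians of 1375 and 1232.5 with vehicle and 1289 and 1482 under fluoxetine, Ndufa5 had 1272 and 1024, then 1132 and 1236, and Ndufa2 had 1033 and 830.4, then 942 and 1063. With vehicle the female median was the higher in each of these genes, and under fluoxetine the male median. After removal of the GC and length trend 0 members passed and the median was -0.08, with an adjusted p of 0.061 for Ndufs4. The assembly factor Ndufaf5 had a lower effect in females as well (-0.28 ± 0.07, limma adjusted p = 0.0428), and rose with fluoxetine in WT males (0.32 ± 0.07, adjusted p = 0.019). Across genes the difference correlated with transcript length at a Spearman value of 0.38 and with GC content at -0.05. Leaving out single libraries gave 4 to 8 members, with 8 without HT fluoxetine male replicate 5, WT fluoxetine female replicate 1, WT fluoxetine male replicate 5 or WT vehicle female replicate 1, 2 or 5. The 4 olfactory bulb markers had a median of 2.03 in this comparison with 0 passing, and their part was not tested.

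**Figure D5:**
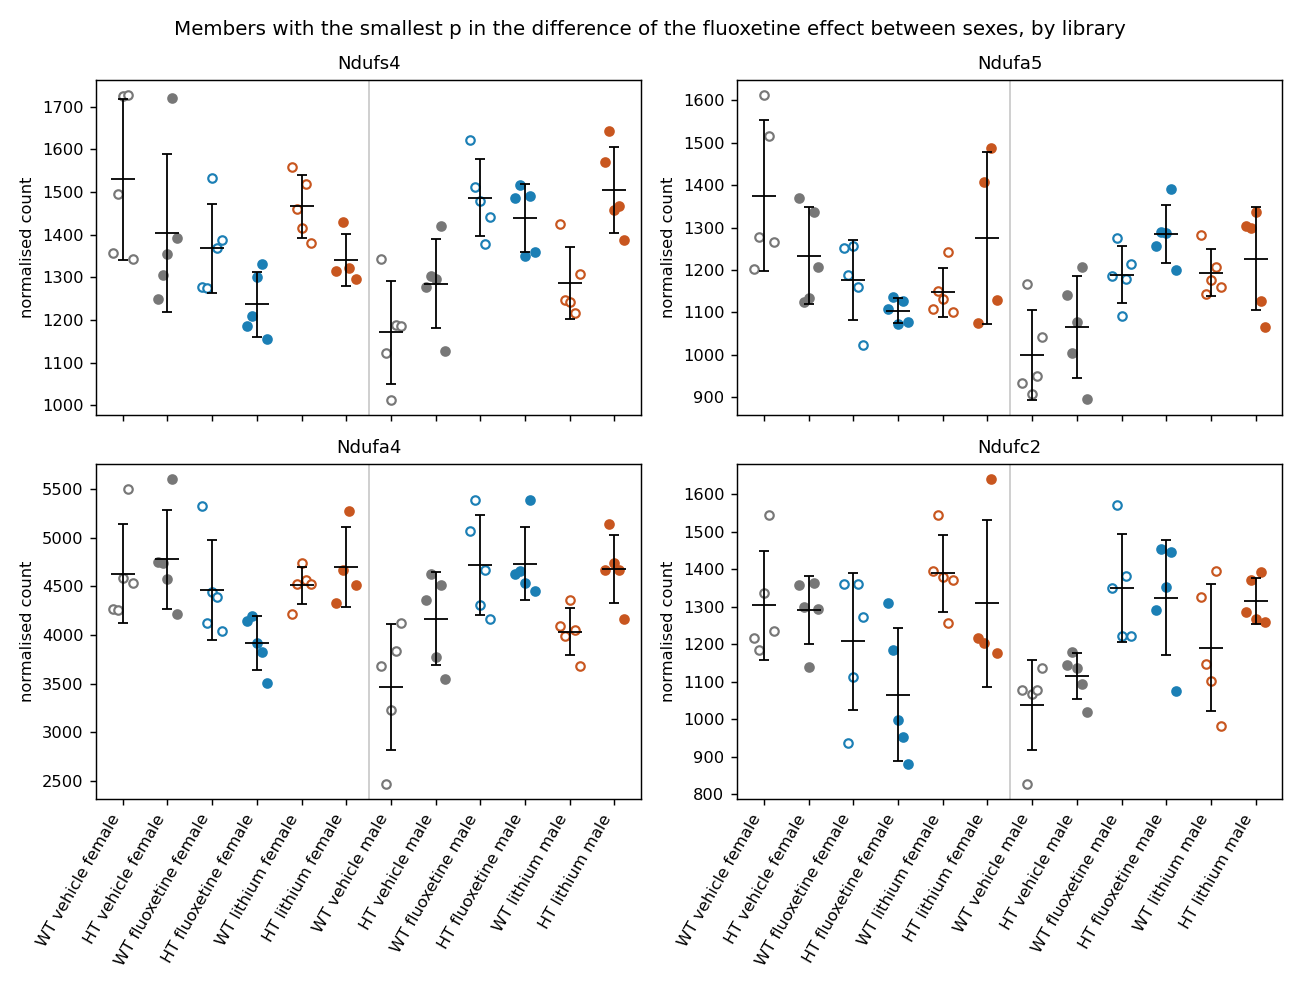
Normalised count of Ndufs4, Ndufa5, Ndufa4 and Ndufc2 in each library of the 12 groups, with group mean and SD in black. Open points are WT, filled points HT, grey vehicle, blue fluoxetine, orange lithium, females left of the line. The axes do not start at 0. Vehicle females lie above vehicle males by the median (1296 and 1086 for Ndufc2), and fluoxetine females below fluoxetine males (1149 and 1351).

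The genotype comparison asks whether subunit levels differ between HT and WT mice. Averaged over drugs and sexes, 0 members passed by limma, edgeR or DESeq2, and 0 had an unadjusted p under 0.05, while 0.129% of all genes rose and 0.229% fell. An unadjusted p under 0.05 was found for 1448 of all 17875 genes. The median was 0.01, the values lay between -0.02 and 0.07, and the smallest p-values were those of Ndufa4 (0.07 ± 0.04, adjusted p = 0.68) and Ndufa13 (0.04 ± 0.03, adjusted p = 0.82). Ash1l itself was lower in HT by the average (-0.31 ± 0.02) and passed in every stratum except vehicle females (-0.11, limma adjusted p = 0.21). That stratum holds the library labelled WT vehicle female replicate 3, whose Ash1l of 3557 lay below every HT library. The Ash1l value without it is not given.

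Among vehicle females 4 members were lower in HT than in WT and 0 higher, against 1.67% and 4.54% of all genes, and the median was -0.18. All 4 belong to the membrane arm, Ndufb9, Ndufb8, Ndufa8 and Ndufb7. Groups did not overlap, with HT lower, for 5 members (1.54% of all genes), and with HT higher for 0 (1.91%). Ndufb9 had 2740.0, 2987, 2888, 2967 and 3098 in HT and 3237, 3269.7, 4059, 3926 and 3168 in WT, without overlap (-0.26 ± 0.07, limma adjusted p = 0.023). Ndufa8 also did not overlap, with at most 1806 in HT and at least 1817 in WT (-0.21 ± 0.06, adjusted p = 0.030). Ndufb8, a subunit often used to mark assembled complex I, had 2404, 2340.5, 2312, 2187 and 2595 against 2579, 2630.2, 3106, 2773 and 2850.1, overlapping by 1 library (-0.23 ± 0.07, adjusted p = 0.030). Ndufb7 had 1109.9, 1149, 1076, 1067 and 1372 against 1249, 1308, 1711, 1373 and 1339 (-0.27 ± 0.08, adjusted p = 0.033), and HT replicate 5 lay among the WT libraries.

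Single libraries changed these calls. The library labelled WT vehicle female replicate 3, whose Ash1l goes against its label, was the highest of its group for all 4 genes, and without it 0 members passed. Among the HT vehicle females, leaving out replicate 2 or 4 also gave 0, replicate 1 gave 1, replicate 3 gave 2 and replicate 5 gave 9. Among the WT ones, replicate 4 gave 2 and replicate 1 gave 8. With only the 10 vehicle female libraries in the fit it was 0, and after removal of the GC and length trend it was 0 with a median of -0.06. Across genes this comparison correlated with GC content at a Spearman value of -0.53. The olfactory bulb markers had a median log2 fold change of 1.94 in it, with summed levels of 391 to 12344 in HT and 272 to 2978 in WT, and the oligodendrocyte markers one of -0.57, with 60411 to 132495 and 96303 to 254774, and 0 of either list passed. Of the 4 endothelial markers only Cldn5 passed, and it fell (-0.40, limma adjusted p = 0.036). The library labelled WT vehicle female replicate 3 had the highest summed endothelial level of all, 8465.5 against at most 5993. Their part in the result was not tested. Of the 10 regulators 2 rose, Ppargc1a, a coactivator of mitochondrial biogenesis (0.38 ± 0.11, adjusted p = 0.028), and Gabpa (0.35 ± 0.11, adjusted p = 0.035), and of the assembly factors and mitochondrially encoded subunits 0 passed.

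In vehicle males the same comparison had the other sign. The median was 0.13, 36 of 37 members were higher in HT, and 0 passed by limma, edgeR or DESeq2 (0.0% of all genes rose and 0.00559% fell by limma), with 9 higher and 0 lower at an unadjusted p under 0.05. Such a p was found for 1240 of all 17875 genes, in either direction. Ndufa4 had 4362, 4629.8, 3780.1, 4517 and 3548 in HT and 3679, 2471, 3229, 3834 and 4128 in WT, overlapping (0.28 ± 0.09, adjusted p = 0.70), and Ndufa11 had the next smallest p (0.23 ± 0.08, adjusted p = 0.70). The difference of the genotype effect between vehicle females and males was negative in 36 members, with a median of -0.26, and passed for 6, against 1.14% of all genes in that direction and 1.77% in the other, where 0 members passed. Ash1l itself passed in this test (0.29, limma adjusted p = 0.037), with the smaller genotype difference in females. The females include the library labelled WT vehicle female replicate 3, whose Ash1l goes against its label, and Ash1l was not reported without it. The 6 members were Ndufb9 (-0.44 ± 0.10, limma adjusted p = 0.025), Ndufa13, also known as GRIM-19 (-0.40 ± 0.10, adjusted p = 0.030), Ndufb7 (-0.41 ± 0.11), Ndufa11 (-0.43 ± 0.12), Ndufb8 (-0.35 ± 0.10) and the X-linked Ndufb11 (-0.39 ± 0.11, adjusted p = 0.046). Leaving out single vehicle libraries changed the count. Among WT males, replicate 2 or 3 gave 0 and replicate 1 or 5 gave 11. Among HT males, replicate 2 or 4 gave 0 and replicate 3 gave 10. Among WT females, replicate 3 gave 0 and replicate 4 gave 1, and among HT females, replicate 4 gave 0, replicate 2 gave 1, replicate 3 gave 2, replicate 1 gave 3 and replicate 5 gave 11. It was 0 after removal of the GC and length trend.

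In the drug-treated mice genotype called 0 members by limma and by edgeR. By limma 1.37% of all genes rose and 0.582% fell in HT fluoxetine females, 0.0895% and 0.297% in HT fluoxetine males, and 0.0% and 0.00559% in lithium mice of either sex. In fluoxetine females all 37 values were negative, with a median of -0.12, 5 members lower at an unadjusted p under 0.05 and 1 called by DESeq2. An unadjusted p under 0.05 was found for 2784 of all 17875 genes in either direction, a larger share than among the members. By limma 1 was called without HT fluoxetine female replicate 1 or WT fluoxetine female replicate 1. Ndufa9 had 2329, 2084, 2238, 2255 and 2069 in HT and 2247, 2425, 2594, 2582 and 2401 in WT (-0.16 ± 0.05, limma adjusted p = 0.069), where 4 WT libraries lay above every HT library, and Ndufv1 had the next smallest p (-0.17 ± 0.06, adjusted p = 0.14). Groups did not overlap, with HT lower, for 5 members, against 1.83% of all genes. In fluoxetine males the median was 0.06, and 4 members were higher at an unadjusted p under 0.05. Of all 17875 genes, 2782 had such a p in either direction, a larger share than among the members. Ndufa13 did not overlap between genotypes, as for 1.33% of all genes (0.23 ± 0.07, adjusted p = 0.12), with Ndufv1 next (0.18 ± 0.06, adjusted p = 0.16). In lithium females the median was 0.08, with 2 members higher at an unadjusted p under 0.05, Ndufb7 (0.20 ± 0.08, adjusted p = 0.61) and Ndufs6 (0.19 ± 0.09, adjusted p = 0.64). Of all 17875 genes, 1367 had such a p in either direction, a larger share than among the members. In lithium males all 37 values were positive with a median of 0.09, and 6 members were higher at an unadjusted p under 0.05, led by Ndufs4 (0.23 ± 0.07, adjusted p = 0.9999) and Ndufa9 (0.13 ± 0.05, adjusted p = 0.9999). Of all 17875 genes, 662 had such a p in either direction. DESeq2 called 0 members in these last 3 comparisons.

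Females and males, averaged over genotypes and drugs, differed for 0 members by limma, edgeR or DESeq2, while 0.0783% of all genes were higher and 0.0392% lower in females. The median was 0.06, 34 members were higher in females, and at an unadjusted p under 0.05 there were 15 higher and 1 lower. Of all 17875 genes, 2209 had such a p in either direction. The X-linked subunits Ndufa1 (0.12 ± 0.04, adjusted p = 0.23) and Ndufb11 (0.10 ± 0.03, adjusted p = 0.23) did not pass, and the smallest p was that of Ndufs1, which was lower in females (-0.09 ± 0.03, adjusted p = 0.22). Across genes this comparison correlated with GC content at a Spearman value of 0.38.

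Some assignments of reads are uncertain. The exons of 12 members overlap those of another gene of the table, for Ndufb9 on the same strand and for the others on the opposite strand, and the sources used here give no strand setting for the counting. Ndufb1, a further membrane arm subunit, carries the name Ndufb1-ps and a non-coding class in the annotation used and so falls outside the rule. It had a mean normalised count of 889, values of 0.04 ± 0.06 for fluoxetine and -0.02 ± 0.06 for lithium on average, neither passing, and a difference of the fluoxetine effect between females and males of -0.50 ± 0.11 (limma adjusted p = 0.028).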

How the data were processed

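RNA from prefrontal cortex was made into TruSeq Stranded mRNA libraries, per the labels' protocols. The submitters' processing notes name Salmon 0.11.2, R 3.6.0, DESeq2 1.19.11 and build GRCm38, without their roles. The deposited signal is a read count per gene divided by a size factor per library, and whole reads were recovered for all values within 0.01. The sources used here give no counting settings. Values were tested as log2(normalised count + 1) with limma 3.58.1 (trend, robust, R 4.3.3) over all 59 libraries with 1 mean per group, for the 17875 genes with at least 10 in at least 5 libraries, so fold changes of low genes are understated. Benjamini-Hochberg adjustment ran over all genes tested in a comparison (threshold 0.05). Alternatives were edgeR 4.0.16 and DESeq2 1.42.0 on recovered reads, a pseudocount of 10, no filter, removal of a spline trend (5 degrees of freedom) on GC content and length, a replicate block, and left-out libraries. The fit was tested on simulated data. Symbols were taken from GENCODE M21 (GRCm38) and promoters from RefSeq GRCm38.p6. Named are members past the threshold (with more than 8, the 5 with the smallest p in each direction, and where none passed, the 2 with the smallest p), the 3 highest and lowest by level and by spread, the core and X-linked subunits, and passing genes of the other lists. The members and lists were chosen with earlier results of these data known. Some items the naming rule would give are not reported here, though counts and medians include them.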

Additional observations from a re-analysis of the deposited data

Results flagged for a closer look

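In groups of 4 or 5 libraries, 4 of 43 tested sets of values had a library far from the others of its group, where about 1 in 20, or 2.15, would be flagged by chance. The mean log2 deviation over the members was highest in WT lithium male replicate 1, at 0.12. Ndufa11 was lowest in WT vehicle male replicate 2, at a normalised count of 737. Ndufb7 was highest in HT vehicle female replicate 5 among its group, at 1372, and the library labelled WT vehicle female replicate 3 was highest of its own, at 1711.

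The effect of genotype in vehicle mice differed between females and males, by a test of the difference itself, for Ndufb9 (-0.44 on the log2 scale), Ndufa13 (-0.40), Ndufb7 (-0.41), Ndufa11 (-0.43), Ndufb8 (-0.35) and Ndufb11 (-0.39). The effect of fluoxetine differed between females and males, by the same kind of test, for Ndufs4 (-0.42), Ndufa5 (-0.45), Ndufa4 (-0.49), Ndufc2 (-0.51) and Ndufa2 (-0.57). Negative values mean a lower effect in females. None of these genes passed after removal of the GC and length trend. Those for genotype also did not pass without the library labelled WT vehicle female replicate 3. The test for fluoxetine was added after the data were seen.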

How the results depend on the processing

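No called member changed sign. The median of the members did for lithium in WT females (-0.09 to 0.023) and HT against WT in fluoxetine males (0.06 to -0.0078) with the GC and length trend removed, and for fluoxetine in HT females (-0.01 to 0.0015 and 0.0081) without HT vehicle female replicate 4 or 5. Counts and medians kept within their limits with edgeR, a pseudocount of 10, no filter and the replicate block (for the lithium average 13 members higher with the replicate block, median 0.09), and same-numbered libraries did not deviate together (mean correlation -0.011 over 319 pairs). With DESeq2 the members called were 1 lower in HT fluoxetine females, 7 lower in HT vehicle females, 12 lower for genotype by sex and 9 lower for fluoxetine by sex. For lithium DESeq2 called 2 lower in WT females, 1 higher in HT males and 7 higher in HT females, and for fluoxetine 9 higher in WT males. With the GC and length trend removed, 0 were called in HT against WT vehicle females (median -0.063), genotype by sex, fluoxetine by sex (median -0.084), fluoxetine in HT males (median 0.025), lithium in HT females and lithium in WT females in either direction (median 0.023). The same removal gave 3 higher for the fluoxetine average, 1 higher for lithium in HT males and a median of -0.040 for lithium by sex. With only the 10 vehicle female libraries 0 were called. Without the 2 libraries that stand apart, 0 were called in HT against WT vehicle females, genotype by sex and lithium in WT females, 1 lower in HT fluoxetine females, 1 higher for lithium in HT males, 8 higher for lithium in HT females, 3 higher for fluoxetine in WT males and 10 in HT males. The comparisons of genotype in fluoxetine females and of either drug with vehicle in HT mice hold neither of these libraries. Their fold changes therefore stayed the same, and only the spread pooled over all groups and the adjustment changed. The cause of the other changes was not tested. The share of all genes called in each alternative, left-out libraries included, is not given here. The counts therefore show only how the calls of members moved.

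Leaving out single libraries gave 0 to 1 lower in HT fluoxetine females, 0 to 9 lower and 0 to 1 higher in HT vehicle females, and 0 to 11 lower for genotype by sex. For fluoxetine it gave 0 to 3 higher in HT males, 0 to 8 in WT males, 5 to 10 on average and 4 to 8 lower by sex. For lithium it gave 0 to 8 higher in HT females, 0 to 1 higher and 0 to 2 lower in WT females, and 11 to 15 higher on average. Every member had a mean normalised count of at least 339.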
